A study of Mus musculus with 8 samples.

Results

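The genes described here are those encoded by the mouse mitochondrial genome. They were chosen by their chromosome in the deposited table of the 2 ligand groups, where 33 of the 31406 genes lie on chromosome MT. The 33 are 13 protein coding genes, 2 rRNA genes and 18 tRNA genes. GENCODE release M21 (GRCm38) annotates 37 genes on this chromosome, and the tRNA genes mt-Tf, mt-Tv, mt-Ts1 and mt-Td were not analysed here. All 33 members have the same start, end and strand in that release.

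Transcripts were counted in 8 primary cultures of wild-type mouse brain cells labelled as microglia. All 8 were grown for 15 days and then activated for 48 h with 0.01% LPS and 0.002% interferon-γ, both by volume, and ligands in the same vehicle were added at 24, 32 and 40 h of activation. The titles place 4 libraries under SCH 58261, an antagonist of the adenosine A2A receptor (A2A antagonist group), and 4 under SCH 58261 together with 200 nM 2-Cl-IB-MECA, an agonist of the adenosine A3 receptor (dual group). Another field, the treatment, names the 2-Cl-IB-MECA compound for the opposite group. The names of the count columns run with the titles, which were used, so the direction of each difference rests on them. Per the methods of the study, the cultures came from the striatum of C57/BL6 pups a few days old, from several pregnant animals. The methods also give fewer replicates for ligand-treated cells than the libraries deposited per group, whereas a figure legend of the study gives the same number. The number of libraries in the labels was used as n. Neither the labels nor the methods say whether the libraries of a group came from separate litters, so p-values measure the spread between these libraries, which may be partly technical. Cells that had received vehicle alone were not analysed here.

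The total count per library ranged from 32630602 to 45878639. Markers of other cell types were abundant beside those of microglia. The 10 microglia markers summed to 1247 to 1328 CPM with the antagonist and to 1175 to 1252 CPM with both ligands, overlapping narrowly. CPM is the count of a gene relative to the library total. The marker values of this paragraph are not scaled with TMM factors, whereas the gene levels below are. Narrow margins between the groups in these sums were not looked at on the scaled level. C1qa, a complement subunit, was the highest of these markers at 439 CPM, and P2ry12, a receptor of resting microglia, the lowest at 1.83 CPM. The 6 astrocyte markers summed to 5473 to 5970 CPM and the 6 fibroblast markers to 2358 to 2985 CPM, and the ranges of the groups overlapped for both lists. The 6 oligodendrocyte markers summed to 458 to 492 CPM with the antagonist and to 429 to 456 CPM with both ligands, without overlap. The neuron markers stayed between 100.5 and 115.9 CPM, and the 3 endothelial markers in the table between 31.3 and 43.1 CPM. The methods of the study judged the cultures as nearly pure microglia by antibody labelling of CD11b, a protein measure that was not analysed here. The mitochondrial counts below are those of the whole culture, and in such bulk samples fewer cells of a type and less RNA per cell cannot be told apart. The part of these cell types in the mitochondrial counts was not tested.

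The mitochondrial genome is a small circle that is transcribed from both strands into long precursor RNAs. Most of its mRNAs and both rRNAs are bordered by tRNAs, and cutting the tRNAs out at both ends releases the RNAs between them. The mRNAs encode core subunits of complexes I, III and IV and of the ATP synthase (complex V), and the rRNAs and tRNAs serve the ribosome of the organelle. Mitochondrial mRNAs and rRNAs carry short poly(A) tails, whereas mature tRNAs end in CCA. These libraries were made, per the methods of the study, from RNA held on poly-T beads, so a count on a tRNA or an rRNA is not a measure of the mature pool.

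Among the members with enough counts to be tested, the widest differences between the groups lay at 3 adjacent tRNA genes between mt-Nd4 and mt-Nd5, on the plus strand of MT. They are mt-Th (ENSMUSG00000064364, tRNA for histidine, MT:11546-11612), mt-Ts2 (ENSMUSG00000064365, tRNA for serine, MT:11613-11671, the shortest at 59 bases) and mt-Tl2 (ENSMUSG00000064366, tRNA for leucine, MT:11671-11741), and mt-Ts2 and mt-Tl2 share 1 base. Their sequences are shown with mt-Tl1 (another tRNA for leucine, MT:2676-2750, plus strand) and mt-Tn (tRNA for asparagine, MT:5089-5159, minus strand), whose levels were lower in the dual group. All are in GRCm38 and written 5′ to 3′ along their own strand, as the gene is encoded. Capitals mark runs of 5 or more A.

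mt-Th: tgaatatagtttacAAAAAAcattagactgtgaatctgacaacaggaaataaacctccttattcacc
mt-Ts2: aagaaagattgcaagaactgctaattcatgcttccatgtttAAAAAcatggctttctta
mt-Tl2: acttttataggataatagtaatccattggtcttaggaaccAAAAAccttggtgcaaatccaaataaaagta
mt-Tl1: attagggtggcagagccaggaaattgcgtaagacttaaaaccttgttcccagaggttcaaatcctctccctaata
mt-Tn: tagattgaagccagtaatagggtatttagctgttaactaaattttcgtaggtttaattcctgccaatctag

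Such a run was found on the strand of the gene in 4 of the 22 mitochondrial tRNA genes of the reference (18.2%), the 3 adjacent ones and mt-Tr. The run was looked for after the levels had been seen, and its presence is a description of the letters only. mt-Tr, with the longest run, had 0 to 3 counts per library and gave no measurable level.

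Of the 33 members, 25 passed the low-count filter: all 13 protein coding genes, both rRNA genes and 10 tRNA genes. In edgeR's quasi-likelihood test, none of these (0 of 25) passed an adjusted p-value of 0.05, where 0.208% of the 18756 genes tested were called. An unadjusted p-value under 0.05 was found for 10 of the 25 members (40%), beside 12.8% of all genes tested. Of the 10, 4 were higher and 6 lower in the dual group, which is 16% and 24% of the members beside 5.98% and 6.81% of all genes tested. The members share precursor RNAs and some overlap, so these shares are not those of independent genes. DESeq2 called 0 of the 16 members for which it gave an adjusted p-value, beside 3.55% of all genes with one. It gave none for mt-Th, mt-Ts2, mt-Tl2, mt-Tl1 and mt-Tw, among others, so these could not be called. Its unadjusted p-value was under 0.05 for 9 of the 25, beside 11.7% of all genes tested. Without the low-count filter edgeR called 5 members, mt-Ts2, mt-Th and mt-Tl2 higher and mt-Tn and mt-Rnr2 lower, beside 0.36% of all genes higher and 0.806% lower (1.17% in all). The median log2 fold change, dual minus A2A antagonist, was -0.009 over the 25 members and 0.004 over all genes tested. By class it was -0.01 for the 13 mRNAs, -0.10 for the 2 rRNAs and 0.08 for the 10 tRNAs. The median size of the difference regardless of sign was 0.07 for the mRNAs, 0.41 for the tRNAs and 0.07 over all genes tested.

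**Figure D1:**
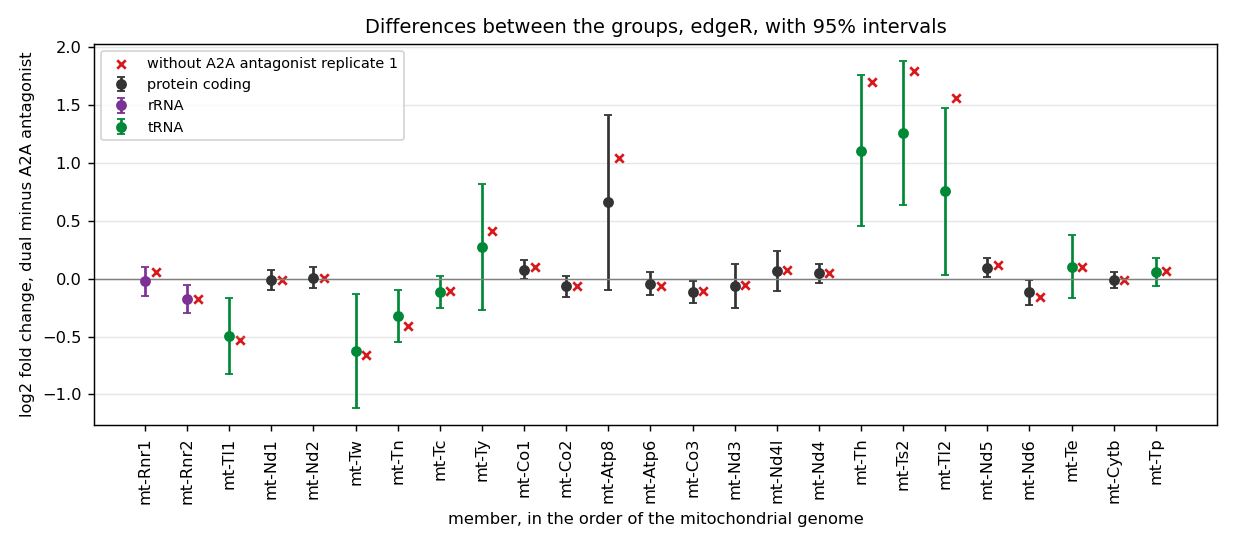
Log2 fold change (dual minus A2A antagonist, vertical axis) of the 25 members that passed the low-count filter, in the order of the mitochondrial genome, with 95% intervals from edgeR over 4 libraries per group. Crosses give the same value without A2A antagonist replicate 1; mt-Th, mt-Ts2 and mt-Tl2 stand highest both with it (1.10, 1.26 and 0.75) and without it (1.70, 1.79 and 1.56).

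mt-Ts2 had 1.56, 0.572, 0.335 and 0.682 CPM in A2A antagonist replicates 1 to 4. In the dual group its level was 1.78, 1.95, 1.90 and 1.78 CPM. Every dual library thus lay above every A2A antagonist library, and antagonist replicate 1 lay close to the dual group. Of the 25 members tested, 2 did not overlap between the groups, 1 higher (mt-Ts2) and 1 lower (mt-Tl1) in the dual group, beside 7.42% of all genes tested (3.36% higher, 4.06% lower). The log2 fold change of mt-Ts2 was 1.26 ± 0.30 (SE, n = 4 per group, edgeR's adjusted p = 0.0731).

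mt-Th had 2.57, 0.814, 0.790 and 0.836 CPM with the antagonist and 3.13, 2.79, 3.12 and 1.60 CPM with both ligands. Antagonist replicate 1 was again high, and the groups overlapped. The log2 fold change was 1.10 ± 0.31 (SE, edgeR's adjusted p = 0.135). mt-Tl2 had 5.52, 1.03, 1.75 and 1.23 CPM with the antagonist and 3.49, 4.57, 4.10 and 3.56 CPM with both ligands. Here antagonist replicate 1 was the highest of all 8 libraries, and the log2 fold change was 0.75 ± 0.34 (SE, edgeR's adjusted p = 0.360).

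Summed over the 3 tRNAs, the level was 9.64, 2.42, 2.87 and 2.75 CPM with the antagonist and 8.40, 9.30, 9.11 and 6.95 CPM with both ligands. These sums rest on 110 to 418 counts per library. The 3 genes are shorter than a read as given in the methods of the study, and they adjoin or overlap each other. Their counts may therefore not be separate measurements. How reads over several genes were counted is not given in the sources used here. The mean of the dual group was 1.91 times that of the antagonist group, and 3.15 times without antagonist replicate 1. Without that library edgeR's adjusted p-value was 0.00315 for mt-Th, 0.00211 for mt-Ts2 and 0.000679 for mt-Tl2. These 3 were the members then called, beside 0.902% of the 19064 genes tested. With any other single library left out, edgeR's adjusted p-value was 0.0909 to 0.345 for mt-Th, 0.0956 to 0.225 for mt-Ts2 and 0.347 to 0.646 for mt-Tl2. Antagonist replicate 1 was singled out by its values for these same genes, so the p-values without it do not test the difference. Summed over the other 15 tRNA members, mostly mt-Tp, mt-Tc and mt-Tn, the level was 82.5 to 87.6 CPM with the antagonist and 75.03 to 91.13 CPM with both ligands, with overlap. Of these 15, mt-Tl1 and mt-Ti, described below, did not overlap between the groups, beside 7.42% of all genes tested. mt-Ti was below the low-count filter and so is not among the genes tested.

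Several other measures, though not all, set antagonist replicate 1 beside the dual libraries in the same way. Gm28438, an annotated pseudogene copy of mt-Nd3 on chromosome 1, had 21.2, 10.1, 11.4 and 10.7 CPM with the antagonist and 19.3, 19.97, 21.9 and 22.7 CPM with both ligands. Genes of the class TEC (unverified transcripts still to be experimentally checked) took 0.101%, 0.0855%, 0.0890% and 0.0861% of all counts with the antagonist and 0.0976% to 0.104% with both ligands. For lincRNA genes these shares were 0.659%, 0.523%, 0.583% and 0.556% against 0.607% to 0.717%. The class rRNA, which leaves out the mitochondrial rRNAs, differed, with 0.280%, 0.249%, 0.251% and 0.280% against 0.237% to 0.264%. There antagonist replicates 1 and 4 lay above every dual library. The part of what these libraries share in the levels of the 3 tRNAs was not tested.

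**Figure D2:**
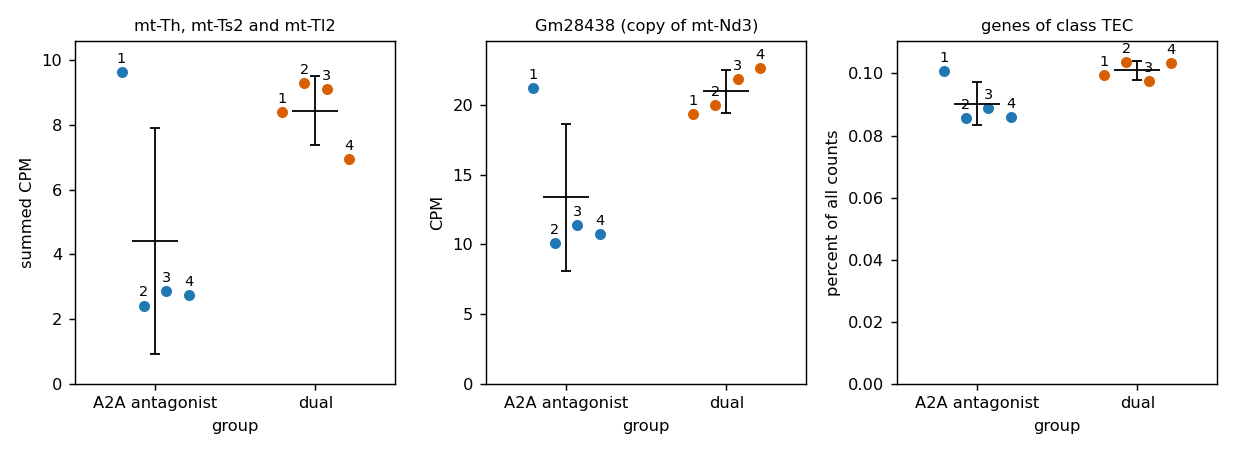
Values per library for the sum of mt-Th, mt-Ts2 and mt-Tl2 (CPM, left), the mt-Nd3 copy Gm28438 (CPM, middle) and the share of all counts in TEC genes (percent, right), with group mean and SD over 4 libraries; numbers are replicate numbers. In all 3 panels A2A antagonist replicate 1 (9.64 CPM, 21.2 CPM and 0.101%) lies apart from the other antagonist libraries and among or above the dual ones.

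The tRNAs mt-Tl1, mt-Tn and mt-Tw also had an unadjusted p-value under 0.05, with lower levels in the dual group. mt-Tl1, which follows mt-Rnr2 on the plus strand, had 2.18, 2.02, 2.70 and 2.58 CPM with the antagonist and 1.38, 1.84, 1.68 and 1.81 CPM with both ligands. Every dual library lay below every antagonist library, at 45 to 117 counts per library, and the log2 fold change was -0.49 ± 0.16 (SE, edgeR's adjusted p = 0.175). mt-Tn had 16.3, 21.1, 18.5 and 23.8 CPM with the antagonist and 14.4, 15.1, 14.4 and 19.7 CPM with both ligands. Dual replicate 4 overlapped the antagonist group, and the log2 fold change was -0.32 ± 0.11 (SE, edgeR's adjusted p = 0.196). mt-Tw, the tRNA for tryptophan (MT:4950-5016), averaged 1.06 ± 0.209 CPM with the antagonist and 0.695 ± 0.133 CPM with both ligands (SD, n = 4). For mt-Tw the log2 fold change was -0.63 ± 0.23 (SE, edgeR's adjusted p = 0.255).

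The remaining tRNAs that passed the filter were mt-Tp, mt-Tc, mt-Te and mt-Ty. mt-Tp, the tRNA for proline (MT:15356-15422), had the highest level of the tRNAs, 35.6 ± 2.04 CPM with the antagonist and 37.1 ± 3.11 CPM with both ligands (SD, n = 4). mt-Tc, for cysteine (MT:5192-5257), had 21.3 ± 1.30 and 19.6 ± 1.90 CPM. mt-Te, for glutamate, had 3.24 ± 0.264 and 3.47 ± 0.559 CPM, and mt-Ty, for tyrosine, had 1.01 ± 0.232 and 1.21 ± 0.423 CPM. For these 4 the 95% interval of the log2 fold change included 0. mt-Tp, mt-Tc and mt-Tn, all on the minus strand, were the 3 tRNAs with the most counts. They are also next to stretches without an annotated gene: mt-Tn and mt-Tc lie 32 bases apart, and mt-Tp is the last gene before the control region. Elsewhere the members lie at most 5 bases from the next annotated gene, or overlap it.

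The 8 tRNA members below the filter had at most 14 counts in any library. Those of mt-Tq (glutamine), mt-Tm (methionine), mt-Ta (alanine), mt-Tk (lysine), mt-Tg (glycine), mt-Tr (arginine) and mt-Tt (threonine) overlapped between the groups, with at most 9 counts per library. mt-Ti, the tRNA for isoleucine, was counted 1, 0, 2 and 4 times in the antagonist libraries and 3, 7, 14 and 13 times in the dual libraries. On the CPM scale its groups were separated by a narrow margin, 0.0881 against 0.0920 CPM, near the level that 3 counts give. When fitted without the filter, mt-Ti had a log2 fold change of 2.36 ± 0.72 (SE, edgeR's adjusted p = 0.0875).

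Messenger RNAs took 96.8% ± 0.152 of the mitochondrial counts with the antagonist and 97.1% ± 0.121 with both ligands (SD, n = 4). mt-Co1, the catalytic subunit of complex IV, led with 40.2% ± 1.31 and 41.5% ± 0.566. Cytochrome b of complex III (mt-Cytb) followed with 16.3% ± 0.659 and 15.8% ± 0.166, and mt-Nd1, which helps to form the quinone site of complex I, with 12.3% ± 0.227 and 11.9% ± 0.406. Of the mRNA counts, the 7 complex I genes took 40.2% ± 0.717 and 39.7% ± 0.523, the 3 complex IV genes 42.6% ± 1.35 and 43.7% ± 0.545, and the 2 ATP synthase genes 0.363% ± 0.0254 and 0.343% ± 0.00652. The ranges of the groups overlapped for each complex. Counts of mt-Co2, mt-Co3, mt-Atp6, mt-Nd3 and mt-Nd4l are uncertain because of near-identical copies, described below. The shares of complex I, complex IV and the ATP synthase, which hold these genes, are uncertain for the same reason.

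Per length, mt-Co1 stood at 4349 ± 297 CPM per kb with the antagonist and 4587 ± 122 CPM per kb with both ligands. mt-Cytb (2373 ± 27.2 and 2358 ± 108) and mt-Nd1 (2147 ± 48.6 and 2132 ± 155 CPM per kb) came next. mt-Cytb lay above mt-Nd1 in every library, although their ranges over the libraries overlapped in the dual group. With the antagonist, mt-Nd2 (1068 ± 22.9) lay above mt-Nd6 (987 ± 79.5) and mt-Nd5 (949 ± 52.4 CPM per kb) in every library. The ranges of mt-Nd2 and mt-Nd6 over the libraries still overlapped, and the order of mt-Nd6 and mt-Nd5 differed between libraries. mt-Nd4 lay below them at 772 ± 28.2 CPM per kb. mt-Nd6, the single mRNA of the minus strand, was thus near the level of complex I genes of the plus strand. The strand setting of the counting was not given in the sources used here, and without strand, reads from a transcript and from its antisense partner cannot be told apart.

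**Figure D3:**
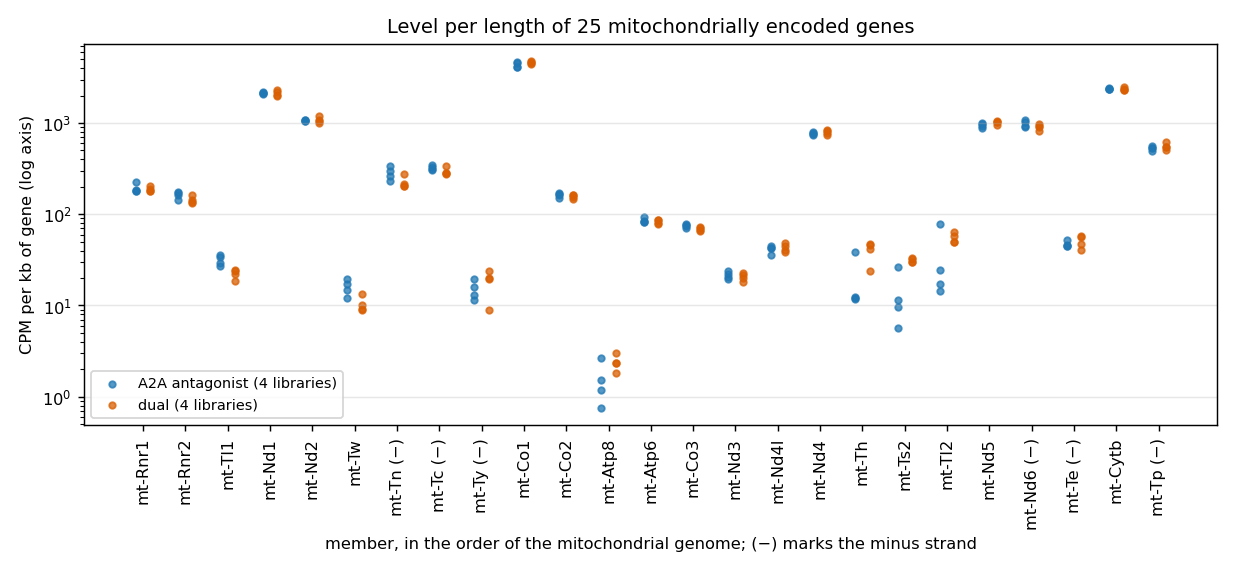
Level per length (CPM per kb of gene, log axis) of the 25 members that passed the low-count filter, in the order of the mitochondrial genome, with 1 point per library (4 A2A antagonist, 4 dual). Mean levels with the antagonist run from 1.53 CPM per kb at mt-Atp8 to 4349 CPM per kb at mt-Co1, and mt-Th, mt-Ts2 and mt-Tl2 show 1 antagonist library beside the dual ones.

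Among the mRNAs 3 had an unadjusted p-value under 0.05, each with overlapping groups. mt-Nd5 (MT:11742-13565), a proton-pumping subunit of complex I, had 1813, 1710, 1793 and 1604 CPM with the antagonist and 1877, 1904, 1748 and 1862 CPM with both ligands. For mt-Nd5 the log2 fold change was 0.09 ± 0.04 (SE, edgeR's adjusted p = 0.302), and it starts directly after mt-Tl2. mt-Nd6 (MT:13552-14070, minus strand), also of complex I, had 471, 563, 527 and 488 CPM with the antagonist and 487, 503, 428 and 468 CPM with both ligands, with a log2 fold change of -0.12 ± 0.05 (SE, edgeR's adjusted p = 0.339). mt-Co3, a core subunit of complex IV, had 60.5, 62.1, 57.6 and 55.4 CPM with the antagonist and 52.0, 55.2, 52.7 and 57.2 CPM with both ligands. The log2 fold change of mt-Co3 was -0.12 ± 0.05 (SE, edgeR's adjusted p = 0.274).

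The 95% interval of the log2 fold change included 0 for the 10 other mRNAs. It was narrow for the abundant ones: -0.08 to 0.06 for mt-Cytb, -0.10 to 0.08 for mt-Nd1, -0.08 to 0.10 for mt-Nd2, -0.04 to 0.13 for mt-Nd4 and -0.01 to 0.16 for mt-Co1. For the less counted ones it was -0.16 to 0.03 (mt-Co2), -0.14 to 0.05 (mt-Atp6), -0.11 to 0.24 (mt-Nd4l) and -0.26 to 0.13 (mt-Nd3). mt-Atp8, the small ATP synthase subunit whose reading frame overlaps mt-Atp6 by 43 bases, had 7 to 28 counts per library. Its interval of -0.10 to 1.41 was the widest of the mRNAs.

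The large rRNA, mt-Rnr2 (MT:1094-2675), had 257.7, 228.3, 274.8 and 267.9 CPM with the antagonist and 209.1, 218.2, 225.1 and 258.0 CPM with both ligands. The groups overlapped, and the log2 fold change was -0.18 ± 0.06 (SE, edgeR's adjusted p = 0.197). The small rRNA, mt-Rnr1 (MT:70-1024), had 214.7, 171.5, 175.6 and 170.5 CPM with the antagonist and 171.7 to 193.6 CPM with both ligands, with a log2 fold change of -0.02 ± 0.06 (SE, edgeR's adjusted p = 0.913). Antagonist replicate 1 was again the library that stood apart. Both rRNAs together took 2.64% ± 0.144 of the mitochondrial counts with the antagonist and 2.38% ± 0.104 with both ligands (SD, n = 4), and libraries of the groups overlapped.

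Where an mRNA ends shows how closely the genes are packed. The last 21 bases of the 3 mRNA genes that leave 1 base beyond whole codons are given here because their stop codon is not in the DNA and is completed by the poly(A) tail. Capitals mark that lone base (GRCm38, plus strand).

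mt-Co3, MT:8607-9390: ccatttattgatgaggatctT
mt-Nd4, MT:10167-11544: taattacaggcctgacaataT
mt-Cytb, MT:14145-15288: aaatactaaaattatatccaT

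All 3 are followed by a tRNA gene. mt-Co3 borders mt-Tg, which had at most 2 counts per library, and mt-Cytb borders mt-Tt, with at most 8. mt-Nd4 ends 1 base before mt-Th. mt-Th, in contrast, had 33 to 143 counts per library. The counts of mt-Tg may be limited by a copy, since its neighbours mt-Co3 and mt-Nd3 have copies on chromosome 1, described below. The stretch between those copies was not searched.

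Several members have near-identical copies elsewhere in the genome, which limits how their counts can be read. In the GENCODE M21 transcripts, 98.1% to 100% of the 31-base words of mt-Co2, mt-Atp6, mt-Co3, mt-Nd3 and mt-Nd4l also occurred in another annotated gene. For mt-Co1 this share was 63.9%, for mt-Nd4 62.8%, for mt-Nd5 16.8% and for mt-Nd2 13.5%, and it was at most 7.5% for mt-Nd1, mt-Nd6, mt-Cytb and mt-Atp8. Words outside annotated transcripts were not searched, so these shares may be too low. mt-Atp8, mt-Tk, mt-Tg and mt-Tr lie between members with copies in a row on chromosome 1, described below. The stretches between those annotated copies were not searched. The 5 mRNAs with over 98% shared words stood at 21.5 to 163.6 CPM per kb with the antagonist, below mt-Nd4 at 772 CPM per kb. How the authors counted reads with more than 1 best position is not given in the sources used here. Levels of these 5 mRNAs are therefore uncertain and cannot be compared with those of the other mRNAs. The same limit may bear in part on the levels per length of mt-Co1 and mt-Nd4, which share most of their words. It may also bear on mt-Atp8, mt-Tk, mt-Tg and mt-Tr, whose place between copied members was not searched on chromosome 1.

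**Figure D4:**
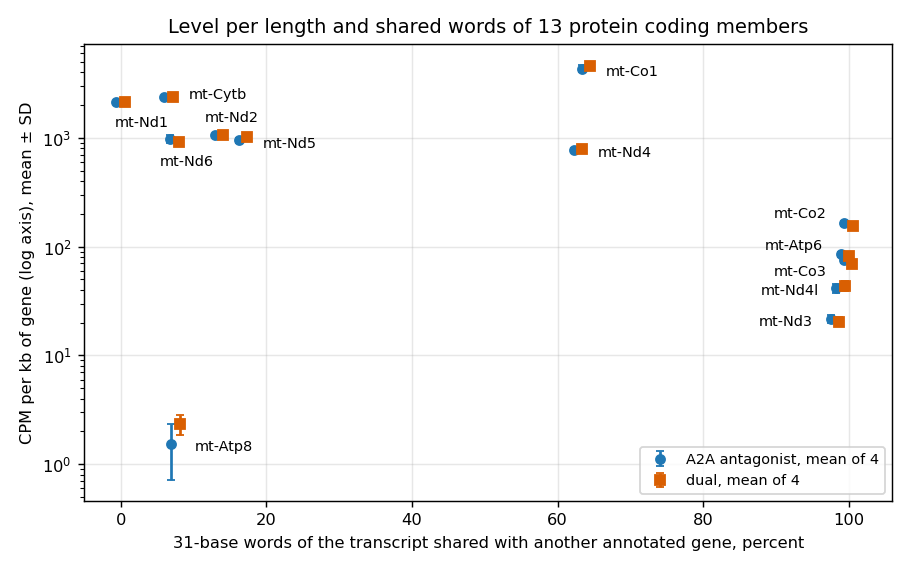
Level per length (CPM per kb, log axis, mean ± SD of 4 libraries per group) of the 13 protein coding members against the percent of their 31-base words found in another annotated gene. Markers of the groups are set slightly apart along the horizontal axis. The 5 genes at 98.1% or more lie between 20.5 and 163.6 CPM per kb, and mt-Atp8 lies lowest at 1.53 CPM per kb with the antagonist. Stretches outside annotated transcripts were not searched, so the percent of mt-Atp8 may be too low.

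Copies of 7 of the mRNAs lie in a row, as pseudogenes, on the minus strand of chromosome 1 (1:24611535-24616197). For the 5 mRNAs with over 98% shared words, nearly all of these words were found there. Gm28439 (copy of mt-Nd4), Gm10222 (mt-Nd4l), Gm28437 (mt-Co3), Gm10925 (mt-Atp6) and Gm28661 (mt-Co2) have no difference to their mitochondrial gene over the aligned length. Gm28438 has 1 difference to mt-Nd3, T3C, counted from the first base of the mt-Nd3 gene with the mitochondrial base first. Gm29216 covers 492 bases of mt-Co1 with 6 differences. The copies took a sizeable part of the counts: 41.1% to 49.7% of the sum for mt-Nd4l, 43.4% to 47.4% for mt-Co2, 47.8% to 51.2% for mt-Co3, 53.0% to 56.2% for mt-Atp6 and 55.0% to 75.5% for mt-Nd3. For mt-Nd4 and mt-Co1 it was at most 2.21% and 0.628%.

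The mt-Nd3 pair was the exception among the copies. Gm28438 took 55.0% to 73.5% of its sum with mt-Nd3 with the antagonist and 74.3% to 75.5% with both ligands. mt-Nd3 itself had 6.87 to 8.27 CPM with the antagonist and 6.28 to 7.81 CPM with both ligands, so the difference was in the counts assigned to the copy. Gene and copy differ at 1 base of the aligned length, yet the level of mt-Nd3 did not rise with that of its copy. For mt-Co3, whose copy has no difference, the copy took 47.8% to 51.2% of the sum in all libraries. How reads were assigned between mt-Nd3 and Gm28438 was not tested. The log2 fold change of Gm28438 was 0.66 ± 0.16 (SE, edgeR's adjusted p = 0.0789), and 0.97 without antagonist replicate 1 (edgeR's adjusted p = 4.77e-06). With another library left out, edgeR's adjusted p-value for Gm28438 reached 0.241. Replicate 1 was singled out by such values, so the smaller p-value does not test the difference. The log2 fold change was -0.06 ± 0.09 for mt-Nd3 alone. For the sum of gene and copy, most of it counts of the copy, it was 0.44 ± 0.11 (SE, edgeR's adjusted p = 0.101). The other 6 summed pairs lay between -0.13 (mt-Co3) and 0.12 (mt-Nd4l), with adjusted p-values in edgeR from 0.198 to 0.963.

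Over the 8 mRNAs above 100 CPM, deviations from the group means correlated between pairs of genes with Pearson's r from -0.17 to 0.94 (median 0.52, 28 pairs, 8 libraries). All pairs share the same libraries and scaling, so this is a description. Variation within a group was small for the abundant mRNAs, with a coefficient of variation of 1.15% to 8.06% with the antagonist for mt-Nd1, mt-Nd2, mt-Nd4, mt-Nd5, mt-Nd6, mt-Co1 and mt-Cytb. It reached 67.8% to 88.7% for mt-Th, mt-Ts2 and mt-Tl2 in that group, where 1 library carried it, against 4.51% to 27.2% with both ligands.

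The nuclear genes that maintain and express the mitochondrial genome were read as the other side of the pathway. Of 38 such genes, all passed the filter and 0 were called in edgeR, beside 0.208% of all genes tested. An unadjusted p-value under 0.05 was found for 3 (7.89%), beside 12.8% of all genes, and the groups did not overlap for these 3, beside 7.42% of all genes. DESeq2 called 1 of the 25 with an adjusted p-value (4%), beside 3.55% of all genes, so these shares were near or below those of all genes. Their median log2 fold change was 0.02, from -0.16 to 0.36. Polrmt, the mitochondrial RNA polymerase, had 28.0 ± 1.25 CPM with the antagonist and 28.3 ± 1.61 CPM with both ligands (SD, n = 4). Tfam, which packages the genome and starts its transcription, had 32.6 ± 1.04 and 31.3 ± 1.46 CPM.

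Hsd17b10, a subunit of the mitochondrial RNase P that cuts tRNAs at their 5′ ends, was the gene called by DESeq2. It had 45.5 ± 0.282 CPM with the antagonist and 40.8 ± 1.26 CPM with both ligands, without overlap, with a log2 fold change of -0.16 ± 0.04 (SE, edgeR's adjusted p = 0.0913, DESeq2's adjusted p = 0.0195). The other subunits, Trmt10c and Prorp (listed as 1110008L16Rik), had log2 fold changes of 0.03 ± 0.06 and 0.09 ± 0.07, and Elac2, which cuts the 3′ ends, of -0.03 ± 0.05. Grsf1, an RNA-binding protein of mitochondrial RNA granules, had 71.1 ± 1.22 and 75.7 ± 1.93 CPM, without overlap, with a log2 fold change of 0.09 ± 0.04 (SE, edgeR's adjusted p = 0.282). Mterf1b, a paralog of the transcription terminator Mterf1a, had 2.16 ± 0.251 and 2.76 ± 0.289 CPM, without overlap (log2 fold change 0.36 ± 0.14, edgeR's adjusted p = 0.273). Reads of such close paralogs may be split between them.

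Among nuclear regulators and decay factors, Ppargc1a, a coactivator of mitochondrial biogenesis, had 21.4 ± 0.292 CPM with the antagonist and 23.1 ± 2.29 CPM with both ligands (log2 fold change 0.11 ± 0.06). Nrf1, a transcription factor of nuclear genes for respiration, had 26.2 ± 0.777 and 24.6 ± 0.961 CPM (-0.09 ± 0.05). Rexo2, which degrades short RNAs in mitochondria, had 108.8 ± 0.650 and 104.6 ± 3.33 CPM (-0.06 ± 0.03). The groups overlapped for these 3 genes, and edgeR's adjusted p-values were 0.443 to 0.528.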

How the data were processed

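RNA was extracted with Trizol, libraries were made with an mRNA kit after capture on poly-T beads, and paired-end reads were aligned by the authors with HISAT2 (Ensembl mouse genome, mm10 per the labels) and counted per gene with featureCounts 1.5.0-p3. The values used are the raw counts per gene that the authors deposited, without normalization or pooling. The tables also hold fold changes and p-values of the authors' own comparisons, which were not used, and 9 columns of per-sample values that belong to no sample used here. The antagonist counts of the 30302 genes in both tables were the same.

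Counts of all 8 libraries were fitted with edgeR 4.0.16 in R 4.3.3 (TMM factors, filterByExpr with a minimum count of 10, quasi-likelihood F test without covariates, Benjamini-Hochberg over all genes tested, called at an adjusted p-value under 0.05). P-values are two-sided, and standard errors and 95% intervals come from the F statistic. The script was tested on simulated data. DESeq2 1.42.0, other scalings, no low-count filter, other treatments of the chromosome 1 copies, a replicate block and leaving out each library were tried as alternatives. Summing the copies with their gene was chosen after seeing the data. Levels are CPM scaled with TMM factors, or CPM per kb of gene. The cell type markers are in CPM without TMM factors. At these depths 3 counts correspond to 0.0654 to 0.0919 CPM, which covers counting error only.

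Groups come from the titles. Pairs of libraries of a group differed by 3.8 to 9.43 times the chi-square of counting noise per degree of freedom. Tables were joined by identifier. Sequences and coordinates are from the GENCODE M21 transcripts and annotation (GRCm38). The named genes are all mRNA and rRNA members, the tRNA members past the filter, and of the machinery list Tfam, Polrmt, called genes and the 3 smallest p-values in each direction. Trmt10c, 1110008L16Rik and Elac2 were named after their values were seen. The members and lists were chosen with earlier results of these data known.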

Additional observations from a re-analysis of the deposited data

Results flagged for a closer look

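In a group of 4 libraries, the gap of 1 library to the nearest other was compared with the range of the group (Dixon's 95% limit). Of 88 such groups, 8 passed, where chance passes about 1 in 20. With the A2A antagonist, replicate 1 stood above the other libraries for mt-Th (2.57 CPM), mt-Tl2 (5.52 CPM), mt-Rnr1 (214.7 CPM) and the mt-Nd3 copy Gm28438 (21.2 CPM). In the dual group, replicate 4 stood above the others for mt-Tn (19.7 CPM), for the copies Gm28437 (57.4 CPM) and Gm29216 (46.4 CPM), and for the share of tRNA members in the mitochondrial counts (0.546%).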

How the results depend on the processing

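The count of 39 called genes was 366 without a low-count filter, 369 in DESeq2, 17 with the replicate block, 1 with a fold change over 1.5 added, and 0 to 172 with 1 library left out. The highest count came without A2A antagonist replicate 1, and 5, 6 and 0 genes were called without antagonist replicates 2, 3 and 4, and 0 without dual replicate 3. The replicate block changed no call of a member or machinery gene, and same-numbered libraries deviated from their group means with correlations of -0.0529 to 0.0408, so the numbers were not taken as a pairing. Of the members 5 were called without the filter (mt-Ts2, mt-Th and mt-Tl2 higher, mt-Tn and mt-Rnr2 lower), and 0 to 3 with 1 library left out, the 3 being mt-Ts2, mt-Th and mt-Tl2 without antagonist replicate 1. Of the machinery genes 1 was called in DESeq2. The cause of these changes was not tested.

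The sum of mt-Nd3 and its copy, most of it counts of the copy, had a log2 fold change of 0.44, against -0.06 for mt-Nd3 alone. Leaving out 1 library at a time, the sign varied for mt-Rnr1 (-0.061 to 0.060), mt-Nd1 (-0.055 to 0.021), mt-Nd2 (-0.047 to 0.044), mt-Cytb (-0.041 to 0.005), Polrmt (-0.019 to 0.045) and Elac2 (-0.071 to 0.005), all with intervals that included 0 in the fit of all libraries. Among all 38 machinery genes it varied for 12, each within 0.053 of 0 with all libraries. The other scalings and leaving out the chromosome 1 copies changed no call of a member or machinery gene. Low counts limit the 8 tRNA members below the filter and mt-Atp8. The part of depth and of copies on chromosome 1 in these low counts was not tested.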
